A study of Mus musculus with 2 samples.

Results

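TCF-1 and LEF-1, encoded by *Tcf7* and *Lef1*, were examined together with β-catenin (*Ctnnb1*) and the Groucho corepressors (*Tle1*, *Tle2*, *Tle3*, and *Tle4*) in sorted mature thymocytes. The members were chosen by gene symbol, and all 7 were listed among the 48321 genes counted. TCF-1 and LEF-1 are DNA-binding proteins of the HMG box family that are required in the thymus for T-lineage commitment, for the double-positive stage, and for the choice between the CD4 and CD8 lineages. They recruit Groucho proteins to repress genes, and β-catenin, which is stabilised when Wnt signals block its destruction, can take the place of Groucho and activate transcription. In peripheral CD8 T cells, high TCF-1 marks naive, memory, and stem-like cells.

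The cells were from MHC-II0:CD8ab Tg mice on the C57Bl/6 background, in 2 replicate libraries. MHC class II is missing through loss of I-Aβ (I-Ab-/-), both CD8 chains are disrupted at the endogenous *Cd8* locus, and CD8α and CD8β are instead made from cDNAs in the *Rosa26* locus. Their expression depends on *Cd4-Cre*, a transgene that acts from the double-positive stage on. The age of the mice is not given in the sources used here. The titles describe cells without CD4 and CD8, whereas the cell type fields give CD8+ cells. The paper's text describes the sorted cells of this genotype as CD4- mature thymocytes. The design holds a single condition, so levels are given without a comparison between genotypes. The labels do not say whether the libraries came from separate mice or pools. The p-values between the libraries set their difference against counting error, or against a variation fixed in advance. They hold no estimate of the spread between samples.

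Genes received 16732644 counts in replicate 1 and 16245849 in replicate 2. These were 40.6% and 41.2% of the counts assigned to a gene, to no gene, or ambiguous between genes. In each library 55.9% were assigned to no gene. Levels are given as counts per 1000000 counts on genes (CPM). At this depth 3 counts, taken as the smallest level that can be shown, corresponded to 0.179 and 0.185 CPM. The intervals given for single libraries account for counting error alone. The libraries stood apart in X-linked *Xist*, with 34 counts in replicate 1 and 25266 in replicate 2, a difference that repeat preparations of the same cells would not give. They also differed in the ribosomal repeat genes *Gm42418* and *Rn18s-rs5*, which took 13.6% and 10.8% of the counts. All 9 markers of mature αβ T cells were above 1 CPM in both libraries, with a summed level of 3093 and 2809 CPM. The 6 markers of double-positive thymocytes summed to 19.5 and 19.02 CPM, of which *Dntt* gave 13.4 and 13.0 CPM, and *Ptcra* had 2 counts in each library. The 4 B cell markers used summed to 13.5 and 15.2 CPM with *Pax5* at 1 and 0 counts, the 6 myeloid markers to 24.6 and 24.6 CPM with *Lyz2* at 0 and 2 counts, and the 6 markers of thymic epithelium and stroma to 3.59 and 4.80 CPM with *Foxn1* at 1 and 0 counts. The 4 NK cell markers were all above 1 CPM in both libraries. They summed to 451 and 502 CPM, mostly *Nkg7* (365 and 391 CPM), which CD8 T cells also express. *Klrk1* was at 61.3 and 77.5 CPM, *Klrb1c* at 22.1 and 27.5 CPM, and *Ncr1* at 2.69 and 6.89 CPM. The part of other cells in these marker counts was not tested. In bulk RNA, more cells that express a gene and more RNA per cell cannot be told apart.

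The members are related in sequence, and their transcripts were compared because reads of 50 bases are assigned to a gene only where that gene's sequence is its own. In GRCm38 (mm10), *Tcf7* spans chr11:52252371-52283014 (minus strand) and *Lef1* spans chr3:131110471-131224356 (plus strand). Their coding sequences were identical at 71.2% of 838 aligned bases. The longest run shared by both coding sequences lies in the part that encodes the HMG box, which contacts DNA. A stretch of 150 coding bases around this run is shown 5′ to 3′ with the bases that differ between the genes in capitals. In *Tcf7* it lies in exon 7 (chr11:52256949-52257032) and exon 8 (chr11:52256782-52256847), and in *Lef1* in exon 8 (chr3:131194704-131194787) and exon 9 (chr3:131200295-131200360).
Tcf7: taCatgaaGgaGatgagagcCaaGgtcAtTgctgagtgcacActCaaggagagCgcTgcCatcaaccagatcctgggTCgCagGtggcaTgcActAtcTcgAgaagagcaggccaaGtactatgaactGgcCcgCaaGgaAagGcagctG
Lef1: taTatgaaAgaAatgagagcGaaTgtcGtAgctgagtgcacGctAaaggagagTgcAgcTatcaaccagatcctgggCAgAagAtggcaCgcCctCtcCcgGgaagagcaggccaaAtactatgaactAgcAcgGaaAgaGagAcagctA
The stretches differed at 29 bases, and the longest run without a difference was 17 bases, so no read of 50 bases within the coding sequences would match both genes exactly.

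The Groucho genes were closer to each other. *Tle1* is on chromosome 4 (72117142 to 72200919, minus strand), *Tle2* on chromosome 10 (81574561 to 81590845, plus strand), *Tle3* on chromosome 9 (61372366 to 61418497, plus strand), and *Tle4* on chromosome 19 (14448150 to 14598051, minus strand). Coding identity ranged from 71.5% for *Tle2* and *Tle4* to 80.1% for *Tle1* and *Tle4*. The stretch around the longest run shared by *Tle1* and *Tle4* is shown for all 4 genes, because reads of 50 bases fit inside that run and match both genes. It is 120 coding bases in exon 15 of each gene, and capitals mark bases that differ from *Tle4*. The coordinates are chr4:72126230-72126349, chr10:81587180-81587299, chr9:61412353-61412472, and chr19:14454783-14454902 in the order of the lines.
Tle1: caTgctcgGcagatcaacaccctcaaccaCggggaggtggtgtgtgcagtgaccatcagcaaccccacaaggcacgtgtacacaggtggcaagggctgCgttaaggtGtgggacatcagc
Tle2: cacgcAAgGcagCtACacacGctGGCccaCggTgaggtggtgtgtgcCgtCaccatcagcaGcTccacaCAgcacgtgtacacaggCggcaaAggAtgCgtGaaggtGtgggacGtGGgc
Tle3: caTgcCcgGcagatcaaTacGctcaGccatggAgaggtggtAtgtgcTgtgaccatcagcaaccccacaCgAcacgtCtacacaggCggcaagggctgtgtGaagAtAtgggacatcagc
Tle4: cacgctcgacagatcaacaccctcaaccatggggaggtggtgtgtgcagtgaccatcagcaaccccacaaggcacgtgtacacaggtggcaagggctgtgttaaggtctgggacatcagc
*Tle1* differed from *Tle4* at 5 of these bases, *Tle3* at 16, and *Tle2* at 27. The longest run shared by the coding sequences of *Tle1* and *Tle4* was 68 bases. Over all their annotated transcripts, 21 of the 5699 windows of 50 bases in *Tle4* also occurred in *Tle1*, or 0.368%. The count tables hold reads with more than a single alignment on a line of their own, outside the genes. None of the windows of *Tcf7* or *Tle3* occurred in transcripts of another gene.

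*Tcf7* had the highest level of the 7 genes. Its counts were 14198 and 13221, or 849 and 814 CPM in replicates 1 and 2, and its level was 831 ± 24.5 CPM (SD, n = 2), rank 84 of all genes listed. Its Wilson 95% intervals, from 835 to 863 CPM for replicate 1 and from 800.1 to 828 CPM for replicate 2, did not overlap. *Tcf7* was the member with the narrowest interval relative to its level. Per kb of the union of its annotated exons its level was 317 ± 9.35 CPM per kb (SD, n = 2), higher than 99.7% of the 21193 protein-coding genes matched to the annotation. The protein-coding genes next to it on this scale were *Rps27a* and *Rpl31* above, at 319.5 and 329.9 CPM per kb, and *Rpl27* and *Cnn2* below, at 314 and 313 CPM per kb. *Rps27a*, *Rpl31*, and *Rpl27* encode ribosomal proteins. They were neighbours of *Tcf7* on this scale only. Per kb of the principal transcript, the genes next to *Tcf7* were *Saraf* and *Lcp1* above, and *Naca* and *Arpc2* below. *A630014C17Rik*, annotated on the opposite strand of *Tcf7* with 0 shared exon bases, had 6.22 and 8.06 CPM, and the lincRNA *Gm26551* on the same strand, also with 0 shared exon bases, had 297 and 253 counts.

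*Lef1* was measured at 3662 counts in replicate 1 and 3727 in replicate 2, or 219 and 229 CPM, with a mean of 224 ± 7.47 CPM (SD, n = 2). Its Wilson intervals of 212 to 226 CPM and 222 to 237 CPM overlapped. Per kb of union exons it was at 25.5 ± 0.850 CPM per kb (SD, n = 2), higher than 92.3% of protein-coding genes. Its neighbours on this scale were *Tnks2* and *Gspt1* above, and *Ctsb* and *Inpp5d* below, each at 25.4 or 25.5 CPM per kb. *Lef1* shares sequence with an opposite-strand gene. The noncoding *Gm43352*, with a single stretch of 3065 exon bases, covers 1208 exon bases of *Lef1* at its start and had 575 and 720 counts, or 34.4 and 44.3 CPM. The strand setting of the counting is not given in the sources used here, so reads from the shared bases cannot be told apart and may be counted for either gene or for neither. Of the windows of 50 bases in *Lef1* transcripts, 13.7% occurred in transcripts of another gene, mostly *Gm43352*. *Gm42449*, on the same strand with 0 shared exon bases, had 4.72 and 4.74 CPM.

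The ratio of *Tcf7* to *Lef1* within a library does not depend on depth. Per kb of union exons it was 13.0 in replicate 1 and 11.9 in replicate 2, with a mean of 12.4 ± 0.781 (SD, n = 2). The union of exons counts every annotated exon base, and for *Lef1* it is 8788 bases, against 3482 bases in its principal transcript. With the principal transcript as the length, the ratio was 5.23 ± 0.329 (SD, n = 2), and without length correction it was 3.71 ± 0.233 (SD, n = 2). *Tcf7* was thus above *Lef1* in both libraries on all 3 scales, while the size of the ratio moved with the length used. Counts per gene also do not separate the full-length forms of TCF-1 and LEF-1 from the shorter forms without the β-catenin binding part.

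**Figure D1:**
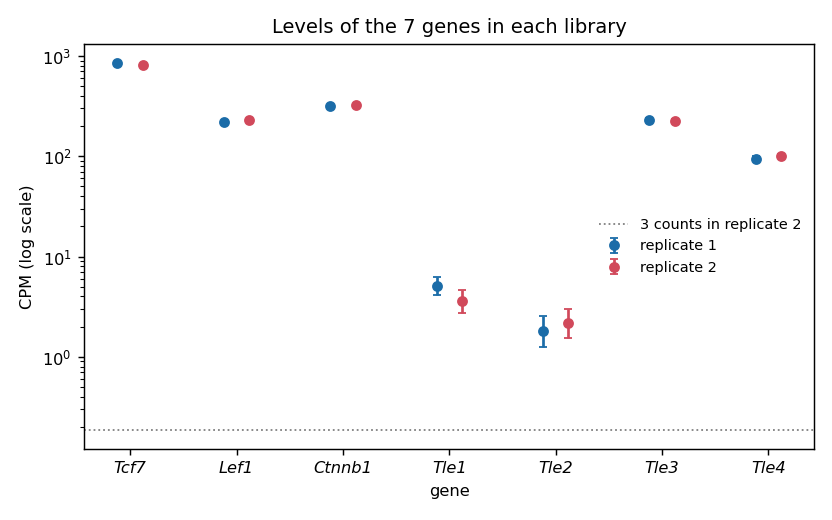
Level of each of the 7 genes in CPM on a log axis, with a point per library and bars for the Wilson 95% confidence interval (counting error only); the dotted line is the level of 3 counts in replicate 2. *Tcf7* lies at 849 and 814 CPM, and *Tle1* and *Tle2* lie between 1.79 and 5.08 CPM.

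The other TCF/LEF genes, *Tcf7l1* and *Tcf7l2*, which take the same role in epithelial and embryonic cells, were close to the detection limit. *Tcf7l1* had 22 and 13 counts, or 1.31 and 0.800 CPM. *Tcf7l2* had 6 and 12 counts, or 0.359 and 0.739 CPM. *Tcf7* and *Lef1* together made up 99.9% of the summed level of the 4 TCF/LEF genes per kb in each library.

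*Ctnnb1*, which encodes β-catenin, lies on the plus strand of chromosome 9 from 120929216 to 120960507. It had 5287 and 5217 counts, or 316 and 321 CPM. Its mean of 319 ± 3.65 CPM (SD, n = 2) had the smallest SD relative to the mean among the members. This held with the totals on genes, but not with library sizes from TMM or DESeq2. The Wilson intervals, 308 to 325 CPM and 313 to 330 CPM, overlapped. Per kb of union exons it was second among the members at 61.4 ± 0.703 CPM per kb (SD, n = 2). *Ulk4* on the opposite strand shares 759 exon bases with *Ctnnb1* and had 18.0 and 17.7 CPM, so the strand limit given for *Lef1* applies here too. *Mir7090*, inside *Ctnnb1*, had 1 count in each library, and *4930593C16Rik*, on the opposite strand with 0 shared exon bases, had 0 counts. *Jup* encodes γ-catenin, the closest relative of β-catenin. It was at 8.90 and 12.8 CPM.

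The Groucho genes fell into a pair with high and a pair with low levels. *Tle3* had 3868 and 3683 counts, or 231 and 227 CPM, with a mean of 229 ± 3.15 CPM (SD, n = 2). *Tle4* had 1587 and 1637 counts, or 94.8 and 101 CPM, with a mean of 97.8 ± 4.19 CPM (SD, n = 2). Both were far above the other pair in each library. *Tle1* had 85 and 58 counts, or 5.08 and 3.57 CPM, and a mean of 4.33 ± 1.07 CPM (SD, n = 2). *Tle2* had 30 and 35 counts, or 1.79 and 2.15 CPM, and a mean of 1.97 ± 0.256 CPM (SD, n = 2). Both were above the level of 3 counts but rest on few reads, with Wilson intervals in replicate 1 of 4.11 to 6.28 CPM for *Tle1* and 1.26 to 2.56 CPM for *Tle2*. *Gm11250*, on the strand opposite to *Tle1*, had 1 count in each library, and *Gm15917*, on the strand opposite to *Tle2*, had 0 counts.

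As shares of the 4 genes within a library, per kb of union exons, *Tle3* made up 53.1% and 51.4% and *Tle4* 44.5% and 46.6%. *Tle1* made up 1.56% and 1.08%, and *Tle2* 0.772% and 0.914%. *Tle3* and *Tle4* together thus accounted for 97.8 ± 0.239% (SD, n = 2). This sum was also 97.8 ± 0.222% (SD, n = 2) with principal transcripts as lengths and 98.1 ± 0.245% (SD, n = 2) from counts. The division between *Tle3* and *Tle4* did depend on the length. *Tle3* made up 73.5 ± 0.868% (SD, n = 2) and *Tle4* 24.3 ± 1.09% (SD, n = 2) with principal transcripts. The union of exons is 11653 bases in *Tle3* against 3523 in its principal transcript.

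**Figure D2:**
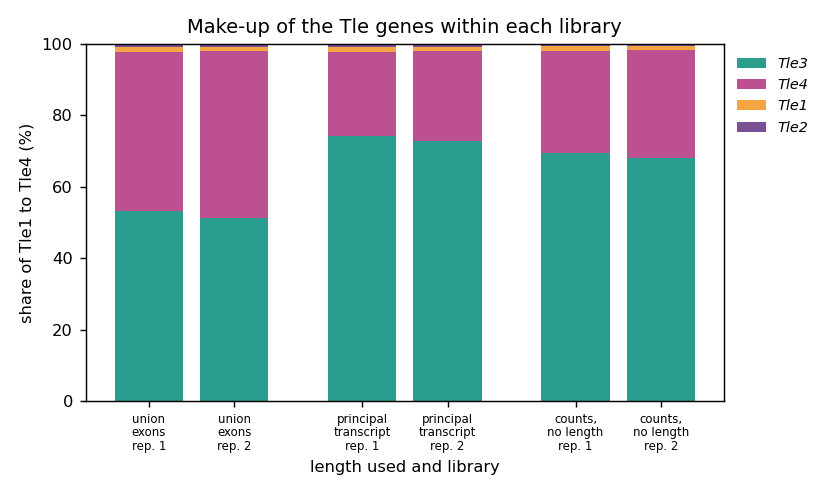
Share of *Tle1*, *Tle2*, *Tle3*, and *Tle4* in their summed level within each library, in percent, with bars stacked to 100 for lengths from union exons, lengths from principal transcripts, and counts without length. *Tle3* and *Tle4* fill nearly all of each bar, and the border between them moves from 53.1% to 74.1% in replicate 1 with the length used.

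*Aes*, also known as *Tle5*, encodes a short Groucho protein without the WD40 repeats that lie at the end of the long forms, and it is known as a modulator of the long forms. It had 5625 and 6047 counts, or 336 and 372 CPM. Per kb of union exons it was at 106 ± 7.65 CPM per kb (SD, n = 2), which was 5.08 and 5.74 times the level of *Tle3* in the same library. The size of this ratio moved with the length used. It was 3.63 and 4.10 with principal transcripts, and 1.45 and 1.64 from counts. *Tle6*, a divergent member, had 4 and 13 counts, or 0.239 and 0.800 CPM. When *Aes* and *Tle6* were added to the family, *Aes* made up 73.7 ± 1.13% (SD, n = 2) of its level per kb of union exons. The share was 73.9 ± 1.39% (SD, n = 2) with principal transcripts and 51.5 ± 1.75% (SD, n = 2) from counts.

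The order of the members per kb of union exons was *Tcf7*, *Ctnnb1*, *Lef1*, *Tle3*, *Tle4*, *Tle1*, and *Tle2*. The ranges over the libraries of neighbours in this order did not overlap, but the gaps were of unequal size. *Tcf7* was 5.16 times *Ctnnb1*, *Ctnnb1* was 2.41 times *Lef1*, and *Tle4* was 34.5 times *Tle1*, whereas *Lef1* was 1.30 times *Tle3* and *Tle3* was 1.15 times *Tle4*. With principal transcripts, *Tle3* at 65.0 ± 0.895 CPM per kb (SD, n = 2) and *Lef1* at 64.4 ± 2.14 CPM per kb (SD, n = 2) had ranges that overlapped, and their order could not be told. With coding lengths, *Lef1* at 188 CPM per kb lay above *Ctnnb1* at 136 CPM per kb. The order of *Ctnnb1* and *Lef1* thus also depended on the length used. With 2 libraries, ranges that do not overlap are a description and not a test.

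**Figure D3:**
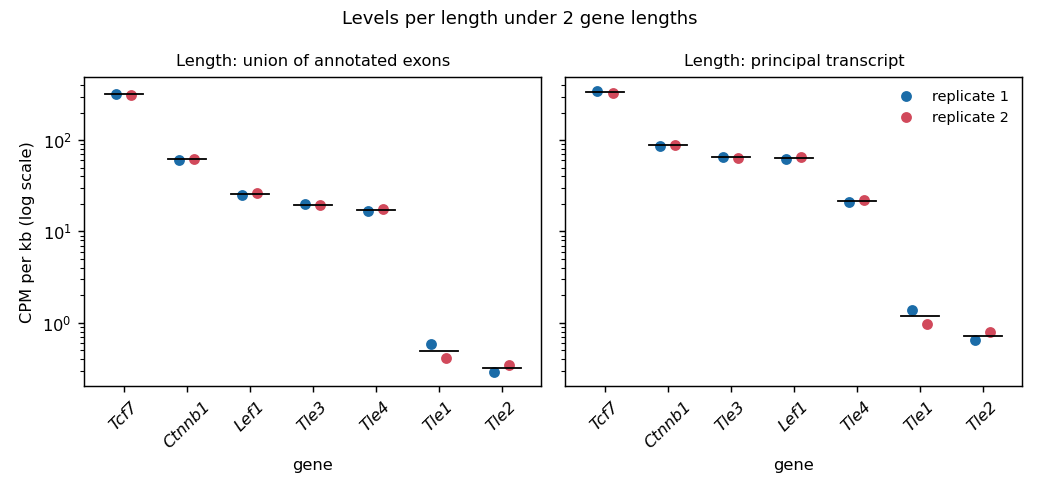
Level per length of the 7 genes in CPM per kb on a log axis, with a point per library and a line at the mean, for lengths from the union of annotated exons (left) and from the principal transcript (right). *Tcf7* is first and *Tle1* and *Tle2* are last in both panels, while *Lef1* and *Tle3* lie apart on the left and overlap on the right.

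For each of the 15949 genes with at least 10 counts over both libraries, an exact binomial test (two-sided, Benjamini-Hochberg adjusted) compared the libraries, and not conditions. Genes were called different where the adjusted p was under 0.05 and the ratio at least 2-fold. None of the members met this rule (0 of 7), against 1.52% of all genes tested (242 genes), made up of 0.94% that were higher in replicate 2 and 0.577% that were higher in replicate 1. With the exact test of edgeR, run at a fixed biological coefficient of variation of 0.1, 0 members and 0.376% of all genes met it. The unadjusted p of the exact binomial test was under 0.05 for 3 members (*Tcf7*, *Lef1*, and *Tle1*) and for 27.7% of all genes tested. At an adjusted p under 0.05 without the fold limit, which 16.3% of all genes tested passed, *Tcf7* was the single member counted. Its log2 ratio of replicate 2 to replicate 1 was -0.06, with an exact 95% interval of -0.09 to -0.03 and an adjusted p of 0.00599 by the exact binomial test, which covers counting error only. The log2 ratio of *Tcf7* was -0.14 with TMM library sizes and -0.12 with DESeq2 size factors, and its adjusted p was 1.0 by the exact test of edgeR. For *Lef1* the log2 ratio was 0.07, with an interval of 0.00 to 0.13 and an adjusted p of 0.163 by the same exact test. The direction for *Lef1* and *Ctnnb1* depended on the scaling, and their log2 ratios became -0.01 and -0.05 with TMM library sizes. The intervals were widest for the genes with few counts, from -0.48 to 1.02 for *Tle2* and from -1.02 to -0.01 for *Tle1*, whose log2 ratios were 0.26 and -0.51. The median of the absolute log2 ratio was 0.07 over the members, 0.17 over all genes tested, and 0.10 over the 5719 genes with at least 1000 counts over both libraries, to which all members except *Tle1* and *Tle2* belong.

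**Figure D4:**
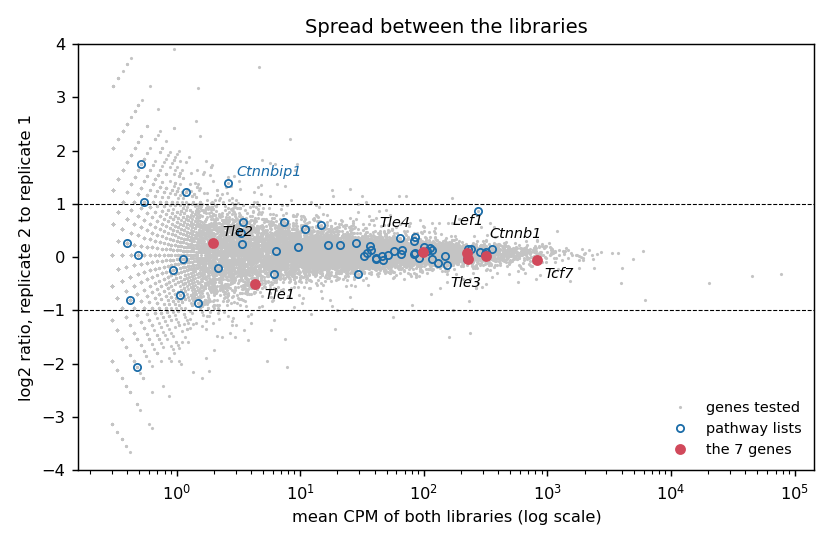
Log2 ratio of replicate 2 to replicate 1 against the mean CPM of both libraries (log axis) for the genes tested (grey), the pathway lists (blue circles), and the 7 genes (red); dashed lines mark 2-fold, 6 genes lie beyond the plotted range, and 15 with 0 counts in a library are not drawn. The 7 genes lie between -0.51 and 0.26, inside the dashed lines.

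Genes that act with the members were taken from lists of the Wnt and Groucho pathways. Of the 97 genes in all lists, 51 had at least 1 CPM in both libraries, compared with 49.0% of all protein-coding genes. At most 3 counts in each library were found for 29 of the 97, compared with 40.5% of all protein-coding genes. These shares of all protein-coding genes also apply to the counts given for single lists below. *Ctnnbip1* alone among the 60 genes tested differed between the libraries by the rule above, set against 1.52% of all genes. The median log2 ratio of those 60 genes was 0.11, and it was 0.08 over all genes tested. With TMM library sizes the median over all genes tested was -0.000968, so counts of genes higher in replicate 2 depend on the scaling.

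All 10 genes of the β-catenin destruction complex, which phosphorylates β-catenin and marks it for degradation, had at least 1 CPM in both libraries. Per kb the highest were the kinase gene *Gsk3a* with 93.9 and 107 CPM, the kinase gene *Csnk1a1* with 308 and 322 CPM, and the scaffold gene *Axin1* with 105 and 118 CPM. At the adjusted p alone, which 16.3% of all genes tested passed, 4 of the 10 were higher in replicate 2, among them *Gsk3a* and *Axin1* with log2 ratios of 0.19 and 0.18, and 0 of the 10 differed 2-fold. Of 8 genes for coactivators of β-catenin, 7 had at least 1 CPM in both libraries, and the exception *Pygo1*, named after its values were seen, had 2 and 3 counts. The highest per kb were *Smarca4*, a chromatin remodeller, with 230.4 and 255 CPM, *Bcl9l*, which links β-catenin to Pygopus, with 163 and 147 CPM, and *Ep300*, an acetyltransferase, with 227 and 222 CPM.

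The 3 genes for inhibitors of β-catenin were all above 1 CPM. *Chd8*, a chromatin remodeller, was at 276 and 295 CPM, and *Cby1*, which binds β-catenin, was at 6.10 and 6.59 CPM. *Ctnnbip1* encodes ICAT, a small protein that keeps β-catenin from TCF factors. Its counts were 24 and 61, or 1.43 and 3.75 CPM, with a log2 ratio of 1.39 and an adjusted p of 0.000508 by the exact binomial test. The adjusted p was 0.113 by the exact test of edgeR at the same fixed variation of 0.1. Of 7 cadherin and catenin genes of cell junctions, 3 were above 1 CPM in both libraries, namely *Cdh1* (E-cadherin) with 74.0 and 95.6 CPM, *Ctnna1* (α-catenin) with 35.9 and 39.1 CPM, and *Jup*. *Ctnnd1*, which encodes p120-catenin and was chosen after its values were seen, had 0 and 1 counts. *Epcam*, a marker of epithelium, was at 2.99 and 3.26 CPM, and the part of other cells in the counts of *Cdh1* was not tested.

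Of 18 genes for Wnt receptors and Dishevelled adaptors, 7 had at least 1 CPM in both libraries and 11 had at most 3 counts in each. The same shares of all protein-coding genes were 49.0% and 40.5%. The detected genes included all the Dishevelled genes, which pass on the signal from the receptors, and *Dvl2* at 75.3 and 92.4 CPM and *Dvl1* at 63.2 and 69.6 CPM were highest per kb. The co-receptor gene *Lrp6* followed with 92.6 and 91.8 CPM. Among the 10 Frizzled genes, *Fzd5* alone exceeded 3 counts in a library, with 114 and 89 counts or 6.81 and 5.48 CPM, and it is named here after its values were seen. Of the 19 Wnt ligand genes, *Wnt2b* was the single one with at least 1 CPM in both libraries, at 1.14 and 1.11 CPM. *Wnt4* followed with 1.02 and 0.862 CPM, and 11 ligand genes had at most 3 counts in each library, against 40.5% of all protein-coding genes. *Wls*, which carries Wnt proteins to the surface, was at 32.5 and 26.0 CPM, whereas *Porcn*, which encodes the acyltransferase that modifies Wnt proteins, had 0 counts in both libraries and is named after its values were seen.

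Feedback genes are those that β-catenin and TCF factors are known to induce in many tissues. Of 10 such genes, 4 were above 1 CPM in both libraries, against 49.0% of all protein-coding genes. *Axin2*, the most widely used readout of the pathway, was at 41.7 and 40.8 CPM, and *Znrf3*, a ligase that removes Frizzled receptors, at 41.1 and 40.4 CPM. The related ligase gene *Rnf43* had 97 and 148 counts, or 5.80 and 9.11 CPM. Of the 7 genes for partners of Groucho, 6 were above 1 CPM in both libraries. *Runx3*, the Runx factor of the CD8 lineage, was at 217 and 240 CPM, and the deacetylase genes *Hdac1* and *Hdac2* were at 82.6 and 86.7 CPM and at 82.1 and 85.3 CPM. *Hes1*, a target of Notch that recruits Groucho, was the exception with 13 and 3 counts and is also named after its values were seen.

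**Figure D5:**
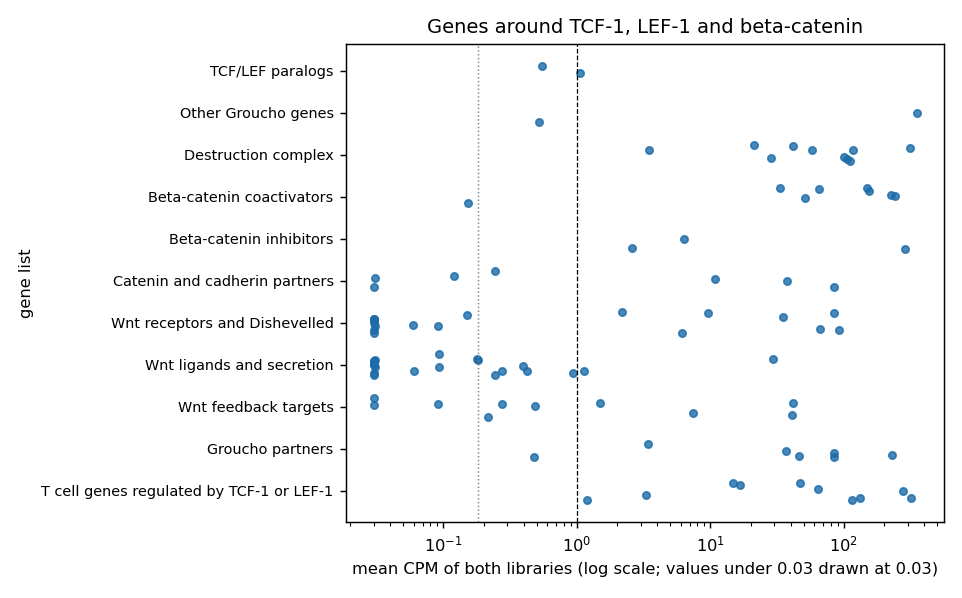
Mean CPM of both libraries (log axis) for each gene of the lists, with a point per gene; the dashed line is 1 CPM, the dotted line is the level of 3 counts, and values under 0.03 are drawn at 0.03. All 10 genes of the destruction complex lie right of the dashed line, and most Wnt ligand and Frizzled genes lie left of it.

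The last list held 10 genes for which regulation by TCF-1 or LEF-1 in T cells is known. *Bcl11b*, a factor of T-lineage commitment, was at 308 and 329.5 CPM, and *Gata3*, a factor of the CD4 lineage and of commitment, at 47.9 and 45.9 CPM. *Cd4*, whose product was used to exclude cells in the sort, had 12 and 27 counts, or 0.717 and 1.66 CPM. Its log2 ratio was 1.21, beyond 2-fold, with an adjusted p of 0.0799 by the exact binomial test. *Zbtb7b*, which encodes ThPOK, a factor of the CD4 lineage, had 15.4 and 18.1 CPM. The memory factor *Eomes* differed most between the libraries among the genes of this list with at least 100 counts. Its counts were 3275 and 5760, or 196 and 355 CPM, with a log2 ratio of 0.86. Its adjusted p was 6.78e-166 by the exact binomial test and 0.0119 by the exact test of edgeR at the fixed variation of 0.1, but the difference was under 2-fold. *Bcl6*, a repressor of effector differentiation, was at 11.7 and 17.7 CPM, and its antagonist *Prdm1* at 2.81 and 3.82 CPM. *Id2* and *Id3*, inhibitors of E proteins, were at 136 and 126 CPM and at 56.1 and 72.0 CPM. *Slamf6*, a surface receptor often measured together with TCF-1, was at 117 and 115 CPM. Of the 10 genes, *Bcl11b*, *Eomes*, *Bcl6*, and *Id3* passed the adjusted p alone, against 16.3% of all genes tested, and 0 met both limits. All 4 were higher in replicate 2, the side to which total-count scaling also put the median of all genes (0.08), and the log2 ratio of *Bcl11b* was 0.10. *Tcf7* and *Lef1*, by contrast, had log2 ratios of -0.06 and 0.07 between the same libraries. Whether the ratio of *Eomes* differs from that of *Tcf7* was not tested.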

How the data were processed

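RNA was taken from sorted mature thymocytes in 2 libraries of a single group. Per the paper's methods and the submitters' processing notes, the authors mapped single-end reads of 50 bases onto mm10 (TopHat 2.1.1), and the deposited values are raw counts per gene (HTSeq 0.6.1). The annotation and the strand setting are not given in the sources used here.

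Counts were divided by the total on genes to give CPM. Lengths, positions, and transcript sequences were from GENCODE M21 (GRCm38), in which 46394 of 48321 symbols were found, and the principal transcript was the one ranked highest by APPRIS, then that with the longest coding sequence. Coding sequences were aligned with biopython 1.88. Identity was computed on coding bases, where a comparison of proteins had been planned. Libraries were compared by the exact binomial test (scipy 1.17.1, statsmodels 0.14.6). edgeR 4.0.16 and DESeq2 1.42.0 gave other library sizes and an exact test with a fixed biological coefficient of variation of 0.1. The test was checked on simulated counts. The members and lists were chosen with earlier results of these data known. Genes named from a list are the up to 3 highest per kb, those that differed between the libraries, and all genes of the TCF/LEF, Groucho, and T cell lists. Other genes are marked where named. The alternatives were other library sizes, lengths, and minimum counts, and each replicate left out. A planned marker gene is not reported here.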

Additional observations from a re-analysis of the deposited data

How the results depend on the processing

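Library sizes from TMM or DESeq2 moved the CPM of 0 of the 7 genes by more than 1 SD. Both methods lowered the size of replicate 1 and raised that of replicate 2 by a like factor. The mean of 2 libraries thus hardly moves by construction, and this outcome is no check of the levels. Leaving out a replicate also cannot move a level by more than 1 SD with 2 libraries. Without 392 mitochondrial and ribosomal RNA genes in the totals, which makes the totals smaller, levels were 964 CPM for *Tcf7*, 259.7 for *Lef1*, 369 for *Ctnnb1*, 2.28 for *Tle2*, 265 for *Tle3*, and 113 for *Tle4*, and *Tle1* stayed within 1 SD. With principal transcript lengths, levels per kb were 336 for *Tcf7*, 64.4 for *Lef1*, 87.9 for *Ctnnb1*, 1.19 for *Tle1*, 0.718 for *Tle2*, 65.0 for *Tle3*, and 21.5 for *Tle4*, and with coding lengths 914, 188, 136, 1.87, 0.858, 97.6, and 42.2. The ratio of *Tcf7* to *Lef1* was 5.23 with principal transcripts and 3.71 without length. The share of *Tle3* was 73.5% with principal transcripts, 68.7% without length, and 13.7% with *Aes* and *Tle6* added, and that of *Tle4* was 24.3%, 29.4%, and 11.9%. The share of *Tle2* was 0.593% without length and 0.220% with *Aes* and *Tle6*, where that of *Tle1* was 0.348%. Between the libraries, the log2 ratio turned to -0.00885 for *Lef1* and -0.0535 for *Ctnnb1* with TMM, and to -0.0382 for *Ctnnb1* with DESeq2 size factors, and 0 members differed 2-fold under the settings tried. At an adjusted p under 0.05 alone, 2 members (*Tcf7* and *Tle3*) were counted with TMM, 1 (*Tcf7*) with DESeq2 size factors, and 0 by edgeR's exact test. The share of all genes tested that passed this limit is given for total-count scaling only, where it was 16.3%. These counts are therefore not read as a result about the members. The 242 genes that differed became 55 with at least 100 counts, where fewer genes are tested, and 60 by edgeR's exact test, and the 1 pathway gene became 0 under both. The split of 92 genes higher in replicate 1 and 150 in replicate 2 was 99 and 98 for TMM, and for DESeq2 size factors 98 and 104. *Tle1* and *Tle2* rest on under 100 counts per library, which limits what can be said of them. No paired analysis was possible because the design holds a single group.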
